A study of Saccharomyces cerevisiae with 8 samples.

Results

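Baker's yeast can live on poor nitrogen sources when better ones are missing. The 9 genes described here serve the use of allantoin, allantoate, urea and proline. They encode permeases, breakdown enzymes and the repressor Dal80, with proline represented by its permease only. They were chosen by systematic name: DAL1 (YIR027C), DAL2 (YIR029W), DAL4 (YIR028W), DAL5 (YJR152W), DAL7 (YIR031C), DAL80 (YKR034W), DUR1,2 (YBR208C), DUR3 (YHL016C) and PUT4 (YOR348C). All 9 were among the 6225 genes on the array and among the 5650 genes bright enough to test; one further locus of the allantoin gene cluster was not used here. The levels come from 8 arrays of the laboratory yeast strain S288C, grown in batch in a minimal medium whose nitrogen source the labels do not name. Each array compared growing cells, sampled once at 16, 17, 19, 20, 21, 22, 23 or 24 h and labelled with Cy5, with S288C cells aged 64 h and labelled with Cy3. Positive log2 ratios thus mark genes with more RNA in growing cells, relative to the other genes on the same array. The scaling within arrays centres the ratios of all genes, so a shift in total mRNA per cell would not be seen. RNA per cell was not measured, and higher and lower are used below in this relative sense. No genotype, drug or second strain was compared, no time had a second array, and the 64 h RNA served as a common reference.

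The pathway works in steps. Dal4 and Dal5 carry allantoin and allantoate into the cell, Dal1 opens the allantoin ring to give allantoate, and Dal2 splits allantoate into urea and ureidoglycolate. The glyoxylate that follows is joined to acetyl-CoA by the malate synthase Dal7. Urea, imported by Dur3 or made inside the cell, is broken down to ammonia and carbon dioxide by the urea amidolyase Dur1,2. Put4 imports proline. These genes belong to nitrogen catabolite repression: the GATA factors Gln3 and Gat1 switch them on when good nitrogen sources run short, the GATA repressor Dal80 holds many of them down, and a breakdown product of urea induces several through Dal81 and Dal82.

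Most of the allantoin genes were higher in growing cells, whereas both urea genes were lower there. With limma, a linear model fitted across all genes (adjusted p under 0.05 after Benjamini-Hochberg), 5 of the 9 members were higher, against 40.3% of all genes tested, and 3 of 9 were lower, against 42.6%. The 5 higher members, DAL7, DAL80, DAL5, DAL1 and DAL4, were each over 2-fold higher, a size that 4.60% of all genes reached. DUR3 was over 2-fold lower, as were 10.2% of all genes. DAL2 did not pass the test. All 9 genes were well above background and unsaturated in both channels on all 8 arrays, so none of their folds is a bound. The size of a fold still depended on the processing. The mean log2 ratio of DAL1 was 1.97 here, 2.19 without the offset of 50 used in background correction and 2.40 with the scanner software's ratios. For DAL80 the same 3 values were 2.29, 2.43 and 2.70, and for DUR1,2 they were -0.76, -0.75 and -0.63. The mean ratio sets the 8 arrays against 1 reference RNA and leaves out the spread of 64 h cells, and any dye bias is part of it, since the dyes were not swapped.

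**Figure D1:**
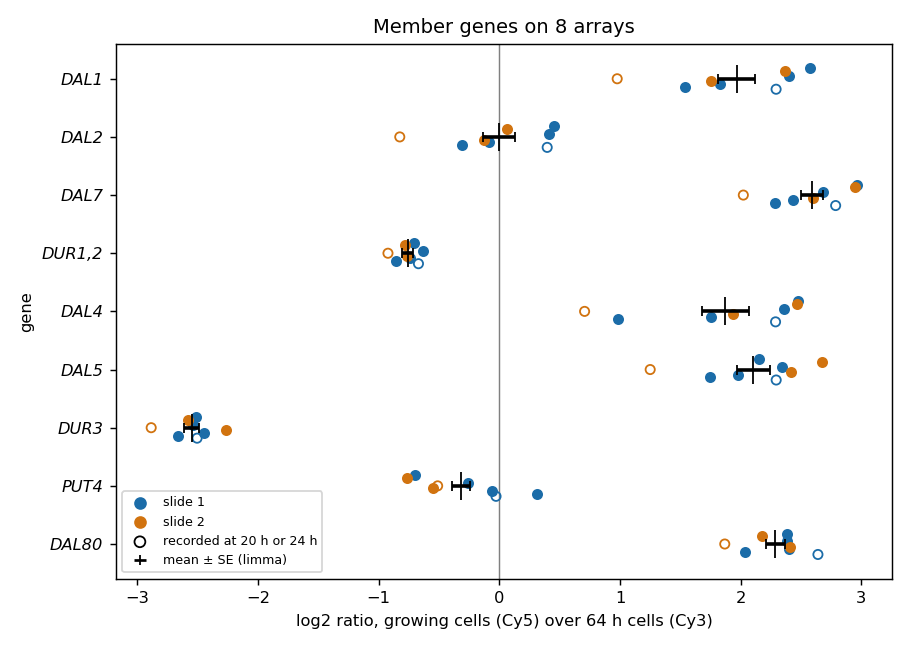
The horizontal axis gives the log2 ratio of growing over 64 h cells and each point is 1 array, coloured by slide, with open points for the arrays recorded at 20 h and 24 h; the black bar is the limma mean with its SE over 8 arrays. All points of DAL1, DAL7, DAL4, DAL5 and DAL80 lie above 0 and all points of DUR1,2 and DUR3 below it.

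Among the enzymes of allantoin breakdown, DAL7 stood highest. Its log2 ratio was lowest at 2.02, had a median of 2.64 and reached 2.96 over the 8 arrays. All 8 arrays lay above 0, and the mean of 2.59 ± 0.09 (SE, n = 8; limma adjusted p = 1.2e-08) is a 6.02-fold higher level in growing cells. DAL1, the allantoinase, ranged from 0.98 to 2.57 with a median of 2.06. Its mean was 1.97 ± 0.16 (limma adjusted p = 1.7e-06), or 3.90-fold higher, again with all 8 arrays above 0.

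DAL2, the allantoicase of the step after Dal1, lay around 0. Its log2 ratio ran from -0.83 to 0.45 with a median of -0.01, 4 arrays being above 0 and 4 below. The mean was 0.00 ± 0.13 (limma adjusted p = 0.98), and its sign turned with other scalings. Within each array the log2 ratio of DAL1 exceeded that of DAL2 by 1.80 to 2.31, although DAL2 followed DAL1 from array to array (r = 0.96 over 8 arrays that both genes share).

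The allantoin and allantoate permeases were higher in growing cells like DAL1 and DAL7. DAL5, the allantoate permease, had a lowest log2 ratio of 1.25, a median of 2.22 and a highest of 2.67. Its mean of 2.11 ± 0.14 (limma adjusted p = 4.5e-07) is 4.30-fold higher. DAL4, the allantoin permease, spread most of the 9, from 0.71 through a median of 2.11 to 2.47. Its mean was 1.87 ± 0.19 (limma adjusted p = 1.2e-05), or 3.66-fold higher, and no array of either permease fell below 0.

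DAL80, the repressor of the pathway, was higher in growing cells as well. Its log2 ratio lay between 1.87 and 2.64 with a median of 2.39. The mean was 2.29 ± 0.08 (limma adjusted p = 1.0e-08), a 4.88-fold higher level on an array-to-array SD of 0.25, compared with 0.68 for DAL4.

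The urea genes went the other way. DUR3, the urea transporter, ranged from -2.89 to -2.26 with a median of -2.52, and its mean of -2.55 ± 0.06 (limma adjusted p = 1.0e-09) is a 5.86-fold lower level in growing cells. DUR1,2 ranged from -0.92 to -0.64 with a median of -0.75. Its mean was -0.76 ± 0.04 (limma adjusted p = 1.7e-07), or 1.69-fold lower. Both genes lay below 0 on all 8 arrays, and on each array DUR3 was the lower of the pair, by up to 1.96 on the log2 scale.

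PUT4, the proline permease, was near the 64 h level, and its direction depended on the dye scaling. Its log2 ratio ran from -0.77 through a median of -0.39 to 0.31, with 7 arrays below 0 and 1 above. The mean was -0.32 ± 0.07 (limma adjusted p = 0.0023) with loess, which removes dye bias along the intensity range, and 0.39 (limma adjusted p = 0.00075) with median centring of the arrays. On slide 1 alone it was -0.15 (limma adjusted p = 0.083), and on slide 2 alone -0.61.

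The arrays lay on 2 slides, told apart by their barcodes, with 5 arrays on slide 1 and 3 on slide 2. Within slide 1 alone and within slide 2 alone the same 5 members were higher, DAL1 with 2.13 and 1.70, DAL4 with 1.97 and 1.70, DAL5 with 2.10 and 2.11, DAL7 with 2.63 and 2.52, and DAL80 with 2.37 and 2.15. DUR3 was at -2.53 and -2.58 and DUR1,2 at -0.72 and -0.83 on the 2 slides. Each of these 7 genes passed on both slides, the limma adjusted p being at most 0.030 on the 3 arrays of slide 2.

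The spread between arrays lay mainly in Cy5, least clearly for DUR1,2. After the channels were put on a common scale, the log2 Cy3 level of the 64 h reference had an SD of 0.05 to 0.14 over the arrays for the 9 genes. The log2 Cy5 level of the growing cells had an SD of 0.14 for DUR1,2, whose Cy3 SD was 0.10, and up to 0.68 for DAL4. For DAL4 the Cy5 level ran from 10.2 to 11.9 while Cy3 stayed between 9.38 and 9.53. For PUT4 the Cy5 level ran from 14.5 to 15.4 and Cy3 from 15.0 to 15.3. The 2 spots of a probe on 1 array differed in log2 ratio by a median of 0.07 for DAL1 to 0.19 for DAL5, with a largest gap of 0.43 for DAL5. A level in such bulk RNA does not tell fewer expressing cells from less RNA per cell.

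**Figure D2:**
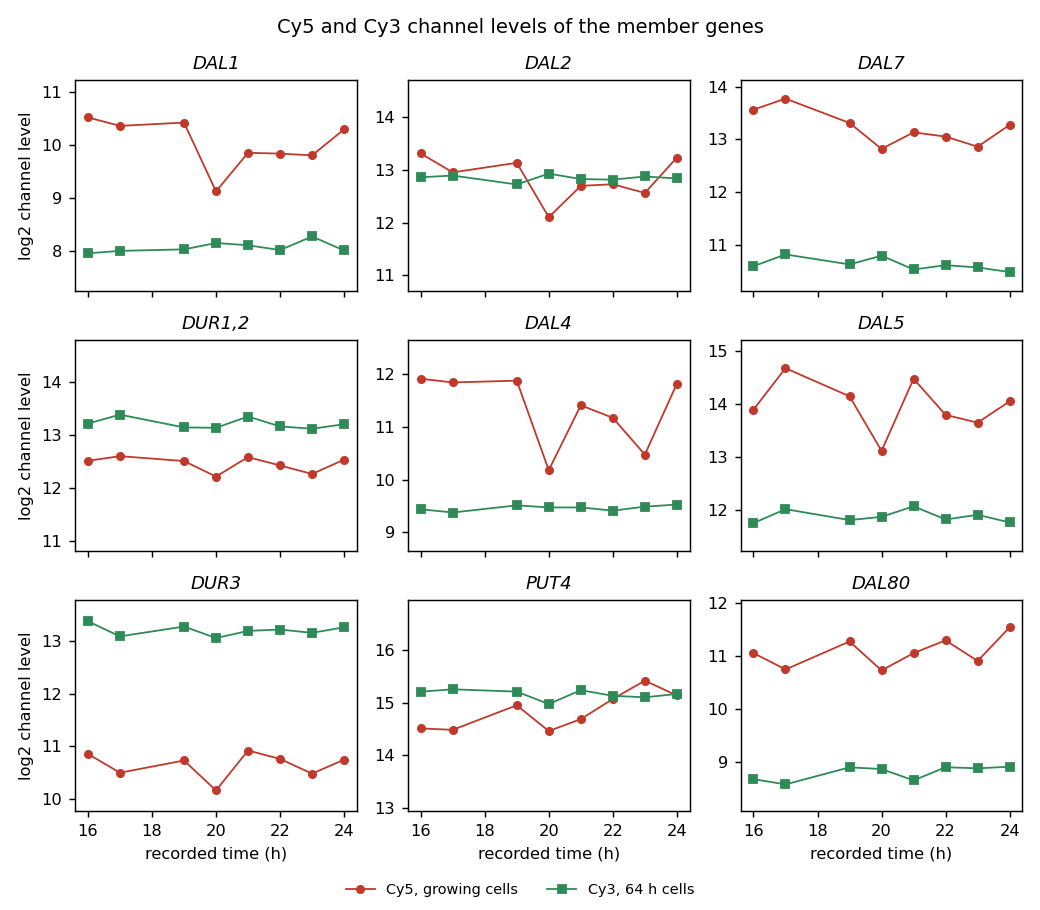
Each panel is 1 gene, with the log2 channel level (loess and Aquantile normalized) on the vertical axis and the recorded time in h on the horizontal axis, red circles for Cy5 and green squares for Cy3. The Cy3 line is nearly level in each panel, with SDs of 0.05 to 0.14, and the Cy5 line of DAL4 spans 10.2 to 11.9.

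DAL1, DAL4, DAL2 and DAL7 lie side by side on chromosome IX, in that order, with DCG1 between DAL2 and DAL7. DCG1, whose product is not well characterised, was 4.89-fold higher in growing cells at 2.29 ± 0.08 (limma adjusted p = 1.2e-08). DAL2 thus lay at 0.00 between neighbours at 1.87 and 2.29. The nearest measured gene before DAL1 is YVH1, a phosphatase gene, at 0.67 ± 0.11, and past the other end MGA2, a regulator of fatty acid desaturation, stood at -0.27 ± 0.04. These 2 flanking genes were picked by position after the values were seen. DAL5 on chromosome X and DAL80 on chromosome XI, far from the cluster, had means of 2.11 and 2.29, within the range of the raised cluster genes.

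Among the members' relatives, DAL7 and MLS1 stood far apart. MLS1, the DAL7 paralogue whose malate synthase serves the glyoxylate cycle, had a mean log2 ratio of -7.28, and DAL7 exceeded it by 9.22 to 10.4 on every array. The other glyoxylate cycle genes were lower too, 4 of 4, against 42.6% of all genes tested. Their median log2 ratio of -3.16 is an upper limit, because the saturated ICL1 enters it. The isocitrate lyase gene ICL1 was at least 23.8-fold lower (Cy3 was saturated throughout), and MDH2, the cytosolic malate dehydrogenase, stood at -5.19 with Cy3 saturated on 1 array. FUR4 and FUI1, permeases for uracil and uridine related to DAL4, were at -0.65 and 0.26, both past the test. Cross-hybridisation between paralogues was not tested, since probe sequences were not used here.

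The known regulators of these genes were slightly lower in growing cells or did not pass the test. Of 7 regulator genes, 5 were lower and 0 higher, against 42.6% and 40.3% of all genes tested. Their median log2 ratio was -0.17, that of all genes tested -0.02. GAT1 and GLN3, the GATA activators, were at -0.53 ± 0.05 and -0.31 ± 0.04 (limma adjusted p = 9.2e-06 and 8.0e-05). URE2, which holds Gln3 in the cytoplasm, was at -0.17, and GZF3, a GATA repressor related to Dal80, at -0.13. NPR1, a kinase that stabilises permeases, was at -0.26, its arrays running from -0.61 to 0.13. DAL81 at -0.11 and DAL82 at 0.01, activators that respond to the urea product allophanate, did not pass the test (limma adjusted p = 0.052 and 0.89).

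Most other nitrogen-regulated transporter genes were lower in growing cells. Of 6 such genes whose direction could be read, 5 were lower and 1 was higher, against 42.6% and 40.3% of all genes tested, and their median log2 ratio was -0.44. MEP2, an ammonium permease gene, is left out of these counts: its Cy5 spots were saturated on all 8 arrays, which lowers the measured ratio, so neither a direction nor a fold is given. OPT2, the eighth of that list, was too dim to test. AGP1, a broad amino acid permease, was at -2.85 ± 0.04 and UGA4, the GABA permease, at -1.45 ± 0.06. The ammonium permease gene MEP3 was at -0.66. The higher one was the general amino acid permease gene GAP1, at 0.59 with Cy5 saturated on 4 arrays.

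The genes that process ammonia, glutamate and GABA were split. Of 8 genes, 5 were lower and 2 higher, against 42.6% and 40.3% of all genes tested, and the median log2 ratio was -0.56. GDH3, a glutamate dehydrogenase, was at -3.96 with Cy3 saturated on 6 arrays, GDH2, which releases ammonia from glutamate, at -2.05 and the GABA pathway gene UGA2 at -1.20. GDH1, the ammonia-assimilating dehydrogenase, was at least 1.76-fold higher (all 8 arrays were saturated in Cy5). In proline and arginine breakdown and its neighbours, 3 of 6 genes were higher and 2 lower, with a median of 0.05. The shares of all genes tested were 40.3% and 42.6%. PRO3, for proline synthesis, was at 0.72 ± 0.06, PUT2 at 0.30 and PUT3, the activator of the PUT genes, at 0.16. PUT1, the proline oxidase, stood at -0.31 ± 0.12, and CAR1, the arginase that makes urea, at -0.27 ± 0.10. Over the 35 pathway genes tested other than MEP2, 8 were higher and 23 lower, against 40.3% and 42.6% of all genes tested.

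**Figure D3:**
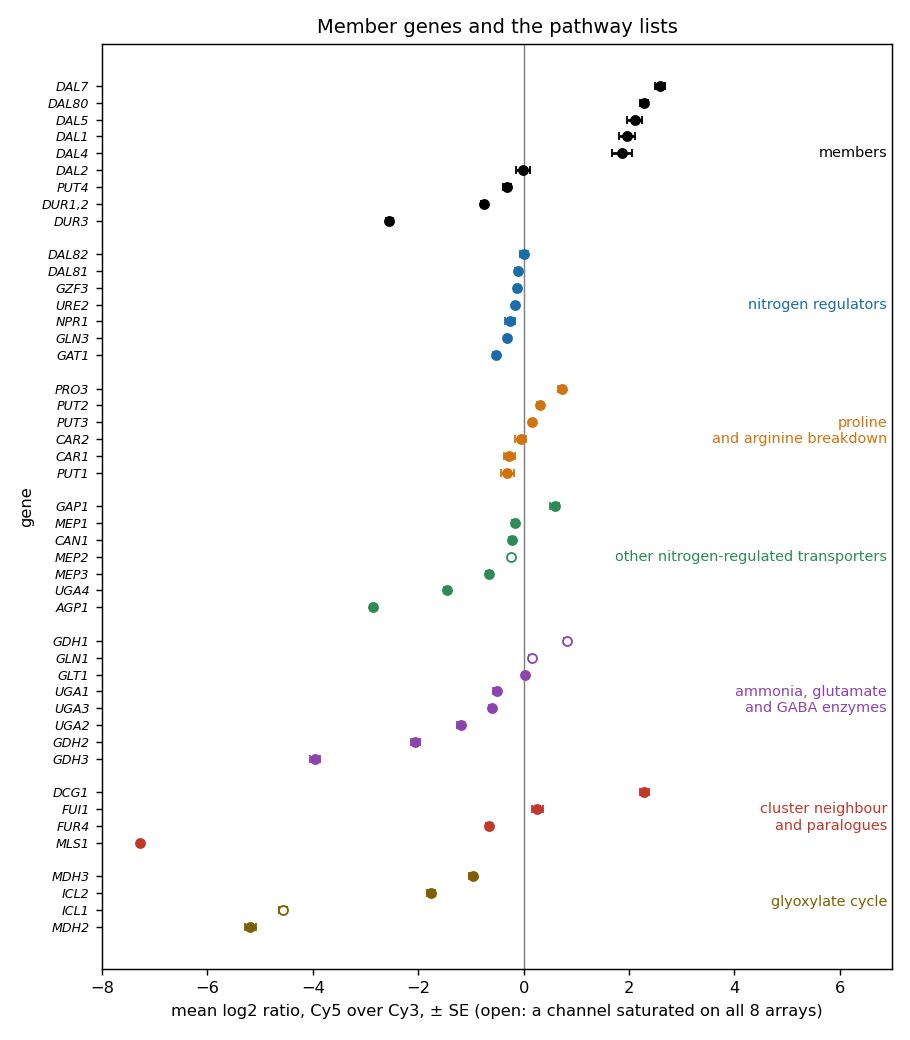
The horizontal axis gives the mean log2 ratio of growing over 64 h cells with its SE over 8 arrays for each gene, grouped by list, with open points where a channel was saturated on all 8 arrays. DCG1 at 2.29 is the pathway gene that lies with the raised members; GDH1 and PRO3 follow at 0.82 and 0.72, while MLS1 lies at -7.28.

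Over time, the recorded hours of 2 arrays are in doubt. In the authors' table the columns of the 20 h and 24 h samples look like the scanner files of each other. Across 5582 genes the r of file and own column was -0.49 at 20 h and -0.39 at 24 h, whereas the crossed pairs reached 0.97 and 0.93 (scanner ratios, centred by slide). On those ratios the remaining 6 files were each closest to their own column. On the loess ratios used here this held for 5 of the 6, the 21 h file being closer to the 19 h column (r = 0.53) than to its own (r = 0.49). The array recorded at 20 h was the lowest of the 8 for 8 of the 9 members, as it was for 23.6% of all genes tested. In the authors' deposited table the lowest column was that for 24 h for 8 of the 9. The share of all genes lowest in that column was not computed. Slopes are therefore given with the hours as recorded, on the 6 other arrays, called undisputed below, and after exchange of the files of 20 h and 24 h.

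As recorded, limma called 0 of the 9 slopes, as it called 0% of all genes in either direction; 1 member, PUT4, had an unadjusted p under 0.05, as did 385 of all genes. On the 6 undisputed arrays DAL1, DAL4 and DAL7 fell and PUT4 rose. That is 3 of 9 falling, against 3.17% of all genes, and 1 of 9 rising, against 5.20%. With the files exchanged 5 of 9 fell, DAL2 and DAL5 in addition, against 8.58%, and 0 of 9 rose, against 10.5%. The exchanged fit holds the same 6 arrays at the same hours, so it is no independent repeat.

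DAL4 had the steepest fall of the 9. On the 6 arrays its log2 ratio was 2.47 at 16 h, 2.46 at 17 h, 2.36 at 19 h, 1.93 at 21 h, 1.76 at 22 h and 0.99 at 23 h. The first 3 arrays lie above the last 3. The slope was -0.18 ± 0.03 log2 units per h (SE, n = 6; limma adjusted p = 0.012), and -0.22 ± 0.04 with the files exchanged (limma adjusted p = 0.0031). DAL1 stood at 2.57, 2.37 and 2.40 on the arrays of 16, 17 and 19 h and at 1.75, 1.83 and 1.54 on those of 21, 22 and 23 h. Its slope was -0.14 ± 0.02 per h (limma adjusted p = 0.0055), and -0.18 with the files exchanged.

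DAL7 fell less steeply, from 2.96, 2.95 and 2.68 at 16, 17 and 19 h to 2.60, 2.44 and 2.29 at 21, 22 and 23 h. Its slope was -0.10 ± 0.02 per h (limma adjusted p = 0.0086), and -0.11 with the files exchanged. At its last undisputed hour DAL7 was thus still well above 0, as were DAL1 at 1.54 and DAL4 at 0.99. These 3 calls were lost without the 23 h array, the last of the 6. The slopes were then -0.13 for DAL1, -0.12 for DAL4 and -0.09 for DAL7 (limma adjusted p = 0.067, 0.051 and 0.087). With that array they were -0.14, -0.18 and -0.10, so the slope itself changed most for DAL4. Without the 21 h array all 3 genes passed, at -0.14, -0.19 and -0.10 (limma adjusted p = 0.0068, 0.010 and 0.0085). With the files exchanged, all 3 passed in each of the 8 fits that left out 1 array.

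DAL2 and DAL5 passed only in the exchanged one of these 3 fits. DAL2 had a slope of -0.09 ± 0.03 per h on the 6 arrays (limma adjusted p = 0.067) and -0.12 ± 0.03 after the exchange (limma adjusted p = 0.021). DAL5 had -0.07 ± 0.03 and -0.12 ± 0.03 (limma adjusted p = 0.21 and 0.040). The DAL5 call held in 2 of the 8 fits that left out 1 array, and that of DAL2 in 5; both were lost without the array recorded at 20 h, where DAL5 had -0.07 (limma adjusted p = 0.19) and DAL2 -0.09 (limma adjusted p = 0.098).

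PUT4 rose over the same hours. It was at -0.70, -0.77 and -0.26 at 16, 17 and 19 h and at -0.55, -0.06 and 0.31 at 21, 22 and 23 h, so early and late arrays overlap. The slope was 0.13 ± 0.03 per h on the 6 arrays (limma adjusted p = 0.037) and 0.08 ± 0.04 after the exchange (limma adjusted p = 0.17). The call on the 6 arrays was lost on leaving out any array but that of 21 h, with slopes of 0.09 to 0.15. With the slide as a block it passed in both, at 0.11 without and 0.09 with the exchanged arrays (limma adjusted p = 0.0027 and 0.0098). The raw median Cy5 signal of PUT4 went from 21940 at 16 h to 60810 at 23 h, while its Cy3 signal was 29544 and 31694. These raw signals also follow each array's overall brightness.

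DUR1,2, DUR3 and DAL80 passed in none of the 3 fits. Their slopes on the 6 arrays were -0.01 ± 0.02, 0.00 ± 0.02 and -0.01 ± 0.02 per h. Whether their slopes differ from that of DAL4 was not tested.

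**Figure D4:**
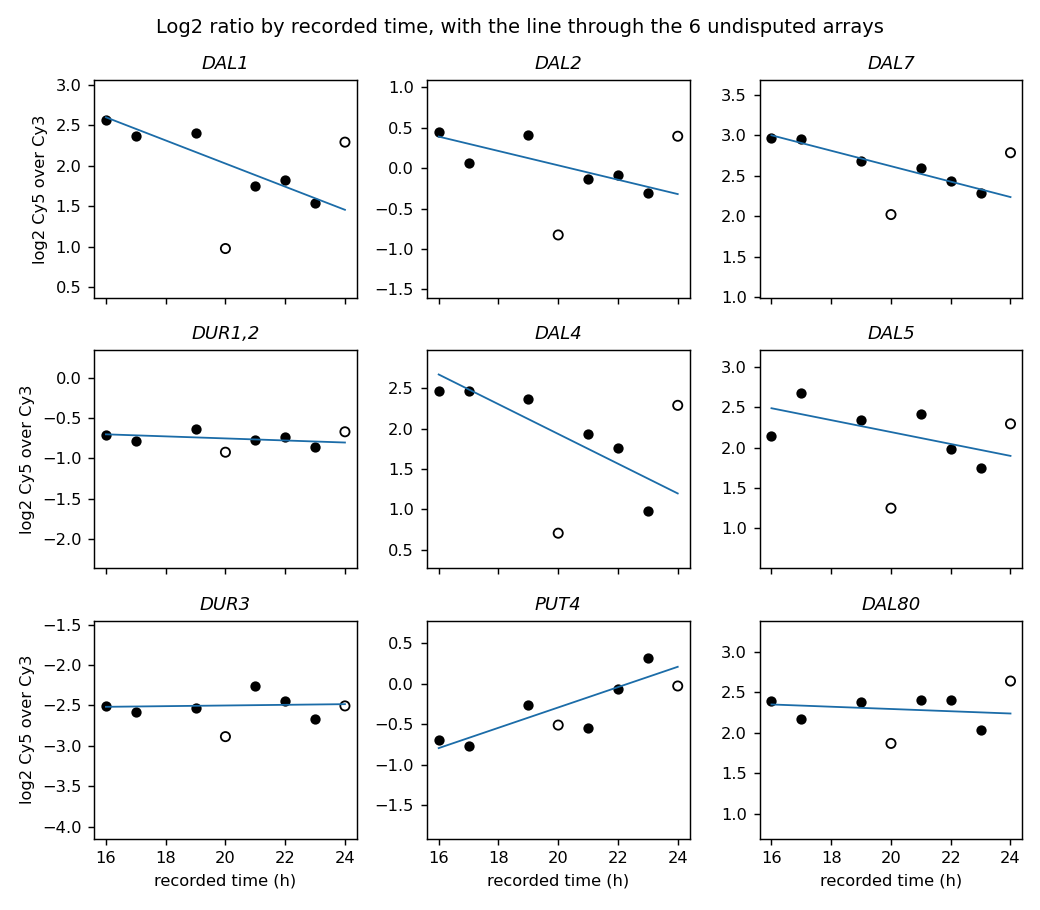
Each panel is 1 gene, with the log2 ratio of growing over 64 h cells on the vertical axis and the recorded time in h on the horizontal axis; open points are the arrays recorded at 20 h and 24 h and the line is fitted to the other 6. The lines of DAL1, DAL4 and DAL7 slope down, at -0.14, -0.18 and -0.10 per h, and that of PUT4 slopes up at 0.13.

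**Figure D5:**
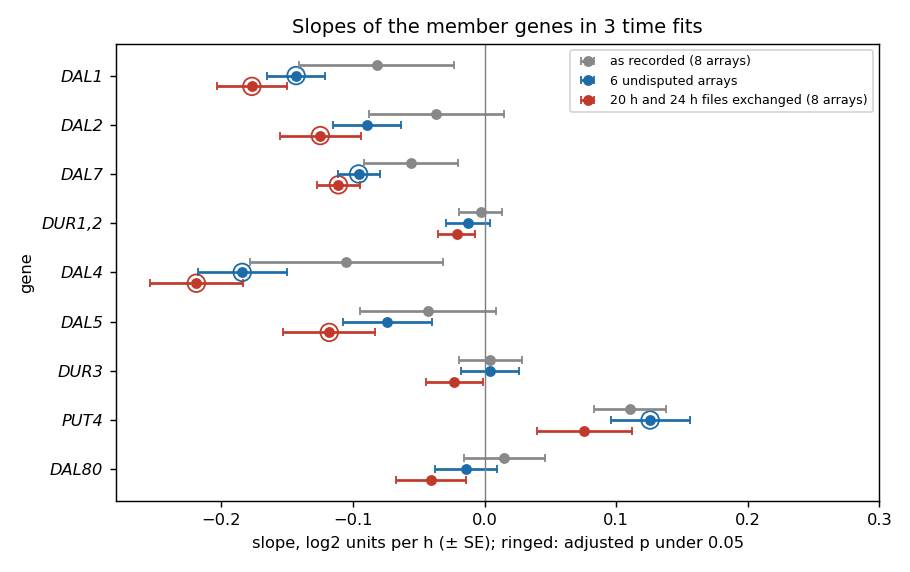
The horizontal axis gives the slope in log2 units per h with its SE for each gene in the 3 time fits, ringed where the limma adjusted p is under 0.05. DAL1, DAL4 and DAL7 are ringed in both fits that do not use the hours as recorded, and DUR1,2, DUR3 and DAL80 in none.

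The slides were also fitted apart. On the 4 undisputed arrays of slide 1, DAL1, DAL2, DAL4 and DAL7 fell, by 0.15, 0.11, 0.19 and 0.09 log2 units per h (limma adjusted p = 0.0015, 0.0066, 0.0051 and 0.0043), and PUT4 rose by 0.13 (limma adjusted p = 0.0020). The share of all genes called in that fit of 4 arrays was not computed, so these calls have no background beside them. Slide 2 holds only 2 undisputed arrays, too few for a line with an error. With the files exchanged, its 3 arrays gave slopes of -0.20 for DAL1, -0.24 for DAL4 and -0.13 for DAL7, none of which passed (limma adjusted p = 0.067, 0.081 and 0.081).

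In the authors' deposited table, which gives each gene centred over the 8 columns, DAL4 went from 0.76 in the 16 h column to -0.90 in that for 23 h and -1.31 in that for 24 h. DAL1 went from 0.75 to -0.54 and -1.08 in the same columns of the authors' deposited table. A limma fit to that table called 5 of the 9 falling, DAL1, DAL2, DAL4, DAL5 and DAL7, and PUT4 rising. The share of all genes called in this fit was not computed, so the count has no background beside it. The table comes from the same 8 arrays and is no independent repeat.

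Of the 36 pathway genes, 4 fell and 3 rose on the 6 arrays, against 3.17% and 5.20% of all genes tested, and 0 of the 7 regulators were among them. On the 6 arrays PUT1 and CAR1 fell, by 0.14 ± 0.02 and 0.13 ± 0.02 log2 units per h (limma adjusted p = 0.0034 and 0.0027), and UGA4 and MEP3 fell by 0.09 and by 0.08. UGA1 and GDH3 rose by 0.09 and 0.14, GDH3 having Cy3 saturated on 6 of the 8 arrays, and the malate dehydrogenase gene MDH2, with Cy3 saturated on 1 array, rose by 0.09. With the files exchanged 8 of the 36 fell and 6 rose, against 8.58% and 10.5% of all genes tested.

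Leaving PUT4 aside, Pearson's r between members over the arrays ran from 0.50 to 0.96. Among the 9 genes, DAL1 and DAL2 had the highest Pearson r over the 8 arrays, 0.96, with DAL4 and DAL7 also at 0.96, and the lowest was -0.42 between DAL7 and PUT4. The mean of the 9 log2 ratios, each centred on its gene's mean, was lowest on the array recorded at 20 h, at -0.61, and highest on that recorded at 24 h, at 0.26. The 5 other genes closest to this mean were INA1, at r = 0.993, ROK1, FYV7 and TPA1, each at r = 0.99, and ZEO1, at r = 0.989. ROK1 and FYV7 act in ribosomal RNA processing, and whether the genes near this mean share a function was not tested. An r of 0.9 or more was reached by 338 of 5640 genes (5.99%), and all these points share the same arrays and the same low array.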

How the data were processed

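Spot intensities were deposited by the authors as Agilent Feature Extraction 10.5.1.1 output, per the file headers, on a design annotated on the sacCer2 build. A log10 ratio of Cy5 over Cy3, corrected for background and dye by the scanner software, was deposited beside them, as were marks for saturated, dim and outlier spots. The authors' value table holds log2 values for 5609 genes, each centred on 0, as its values show; their normalization is not stated.

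Median signals were background-corrected with normexp (offset 50) and normalized by loess within arrays in limma 3.58.1 under R 4.3.3, with controls at weight 0. Outlier spots were then dropped, the 2 spots of a probe averaged, and for the 29 genes with several probes the brightest was kept. Channel levels were taken after Aquantile normalization. Genes were tested if one channel exceeded background clearly on 4 arrays or more, which left 5650 of 6225 genes. The share of gene spots well above background was 84.1% to 91.6% per array for Cy5 and 89.5% to 91.1% for Cy3. Precision is limited by the number of arrays. The lmFit and eBayes model had an intercept, tested against 0 as the mean log2 ratio, and a slope on centred time. Benjamini-Hochberg adjustment ran over all genes tested, with a threshold of 0.05. The fit was tested on simulated data.

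Symbols came from RefSeq's R64 table, which matched 5737 of 6225 names; since the builds differ, no coordinates are given. The labels do not state separate cultures; p-values here cover array-to-array spread, possibly technical. The members, pathway lists and tests were chosen with earlier results of these data known. Named genes are all 9 members, paralogues of members, at most 4 genes a list with a passing mean ratio or slope, and the 5 genes most like the members' mean; some further list genes, chosen after their values were seen, are named to show how each list was split. Of the state check genes, HXT2, HXT3 and MIG2 had mean log2 ratios of 5.90, 3.93 and 3.99, and MLS1, PCK1 and ADH2 had -7.28, -7.13 and -6.11. HXT3 was saturated in Cy5 on 3 arrays, PCK1 in Cy3 on all 8 and ADH2 in Cy3 on 6.

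Alternatives were the scanner's ratios, median centring, offset 0, no filter, a filter of 7 arrays in both channels, the slide as a block, each slide alone, each array left out, and the 2 other time fits. The authors' table and combinations of time and slide were tried for slopes.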

Additional observations from a re-analysis of the deposited data

How the results depend on the processing

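In the mean ratio, DAL1, DAL4, DAL5, DAL7, DAL80, DUR1,2 and DUR3 kept direction and call under all 20 alternatives. Among these, the filters, the slide as a block and the exchange of files cannot change a mean, only its p-value. They thus say nothing about direction. The means ran from 1.70 to 2.40 for DAL1, 1.70 to 2.16 for DAL4, 2.02 to 2.45 for DAL5 and 2.52 to 2.75 for DAL7. They ran from 2.15 to 2.70 for DAL80, -0.83 to -0.44 for DUR1,2 and -2.59 to -2.41 for DUR3. DAL2 never passed and changed sign, to 0.043 with the scanner's ratios, 0.32 with median centring, 0.011 with offset 0, 0.17 on slide 1 and 0.065 on the 6 undisputed arrays, with or without the slide as a block; leaving out 1 array gave -0.070 to 0.11. PUT4 turned to 0.39 with median centring; the cause was not tested. Of the 36 pathway genes, among them MEP2 with Cy5 saturated throughout, 8 were higher and 24 lower; 3 were higher and 15 lower on the 3 arrays of slide 2, and leaving out 1 array gave 7 to 8 higher and 20 to 24 lower.

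As recorded, 0 members passed in slope, and leaving out 1 array gave 0 in either direction for members and pathway genes. The 6 arrays gave 1 rising and 3 falling members, and 1 and 4 with the slide as a block. The exchanged files gave 5 falling, and 1 rising and 5 falling with the block, as did the authors' value table. Shares of all genes are given only for the recorded, 6-array and exchanged fits without the block. For pathway genes, rising and falling counts were 3 and 4 on the 6 arrays, 6 and 9 with the block, 6 and 8 exchanged, 7 and 10 exchanged with the block, and 8 and 14 in the authors' table. On the 6 arrays, leaving out 1 array gave 0 to 1 rising and 0 to 4 falling members. With the files exchanged it gave 0 to 1 rising and 3 to 5 falling; slide 1 alone gave 1 rising and slide 2 alone 0 falling.

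Slopes near 0 changed sign without passing. DUR1,2 went to 0.0048 with median centring and lay between -0.014 and 0.0031 on leaving out 1 array. DUR3 went to -0.0047 on slide 1, -0.023 with the files exchanged, -0.022 with the block besides and -0.040 in the authors' table, and lay between -1.9e-05 and 0.013 on leaving out 1 array. DAL80 went to -0.0064 with the scanner's ratios, -0.014 on the 6 arrays, -0.015 with the block, -0.041 exchanged, -0.036 exchanged with the block and -0.066 in the authors' table, and lay between -0.017 and 0.038 on leaving out 1 array. DAL2 lay between -0.095 and 0.0050 on leaving out 1 array. On the 6 arrays, DUR3 was -0.00016 with the scanner's ratios and -0.010 on slide 1; leaving out 1 array gave -0.0058 to 0.032 for DUR3 and -0.031 to 0.020 for DAL80. With the files exchanged it gave -0.032 to 0.0041 for DUR3.

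The alternatives tried within the 6-array and exchanged fits, combinations with the slide as a block included, were chosen after seeing the data. No paired analysis was possible because the arrays form 1 group with 1 array per time.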
